A study of Mus musculus with 17 samples.

Results

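The amino acid transporters of the proximal tubule were described as a set of 10 genes: Slc6a19, Slc6a18, Slc6a20b, Slc3a1, Slc7a9, Slc7a7, Slc7a8, Slc3a2, Slc1a1 and Slc6a6. They were taken by gene symbol as known carriers of the luminal (apical) or blood-facing (basolateral) side of the tubule, under a rule that uses no measured value, although the set was proposed with earlier results of these data known. All 10 were found among the 22561 genes of the deposited table. RNA of whole kidneys was measured in 17 male mice by strand-specific sequencing, with 1 library per mouse. Ctrl held 5 wild-type C57BL/6 mice. Case held 6 diabetic db/db mice of the strain BKS.Cg-Dock7m +/+ Leprdb/J, which are homozygous for a defective leptin receptor. Dapa held 6 db/db mice of that strain given dapagliflozin, an inhibitor of the glucose carrier SGLT2, by mouth at 1 mg/kg each day. Mice entered at 8 weeks of age and were treated for 6 weeks, and Ctrl and Case received saline in the same way. The Lepr genotype was compared across 2 strain backgrounds, so genotype and background cannot be told apart in any comparison with Ctrl. In whole-kidney RNA, fewer proximal tubule cells and less RNA per cell cannot be told apart either.

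The proximal tubule takes filtered amino acids back from the urine. Carriers of the apical brush border load them into the cell, mostly with sodium or by exchange, and basolateral exchangers and uniporters pass them on to the blood. Several of these carriers are pairs of a light chain that forms the pore and a heavy chain that brings it to the membrane, and inherited loss of single members causes amino acids to spill into the urine, as in Hartnup disorder and cystinuria.

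Total counts per library ranged from 13039535 to 17779635, and 17.9% to 27.6% of them fell on mitochondrial genes, with 17.9% to 20.4% in Ctrl, 19.8% to 27.3% in Case and 19.7% to 27.6% in Dapa. The members were well covered, with 970 to 17908 reads per gene and mouse, so counting error was small beside the spread between mice. Of 18 proximal tubule markers other than the members, all 18 were detected in the tissue, and their geometric mean FPKM (fragments scaled to gene length and library total) was 212 to 236 in Ctrl, 127 to 212 in Case and 125 to 204 in Dapa. In 7 libraries (Ctrl 1, 3 and 4, Case 1, Dapa 10, 11 and 12) the counts and FPKM of 3 split table entries disagreed, which was treated as a possible batch. These 3 genes are not members and were left out.

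Levels per length placed Slc3a1 first in every group, with a mean of 242 ± 22.8 FPKM in Ctrl (SD, n = 5). Slc6a18 (98.1 ± 14.3) and Slc6a19 (69.3 ± 14.2) followed and overlapped each other. Slc6a6 (48.4 ± 5.45), Slc7a8 (46.8 ± 5.54), Slc7a9 (44.4 ± 4.90) and Slc7a7 (43.0 ± 6.01) lay close together, and neighbours in this order overlapped. Slc1a1 (24.7 ± 1.63), Slc6a20b (24.6 ± 3.88) and Slc3a2 (24.3 ± 1.04) were lowest and did not differ beyond their spread. In db/db kidneys Slc6a20b moved to the end of the order, at 14.1 ± 2.28 FPKM in Case and 12.4 ± 3.16 in Dapa (SD, n = 6 each), below Slc1a1 in every db/db mouse.

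**Figure D1:**
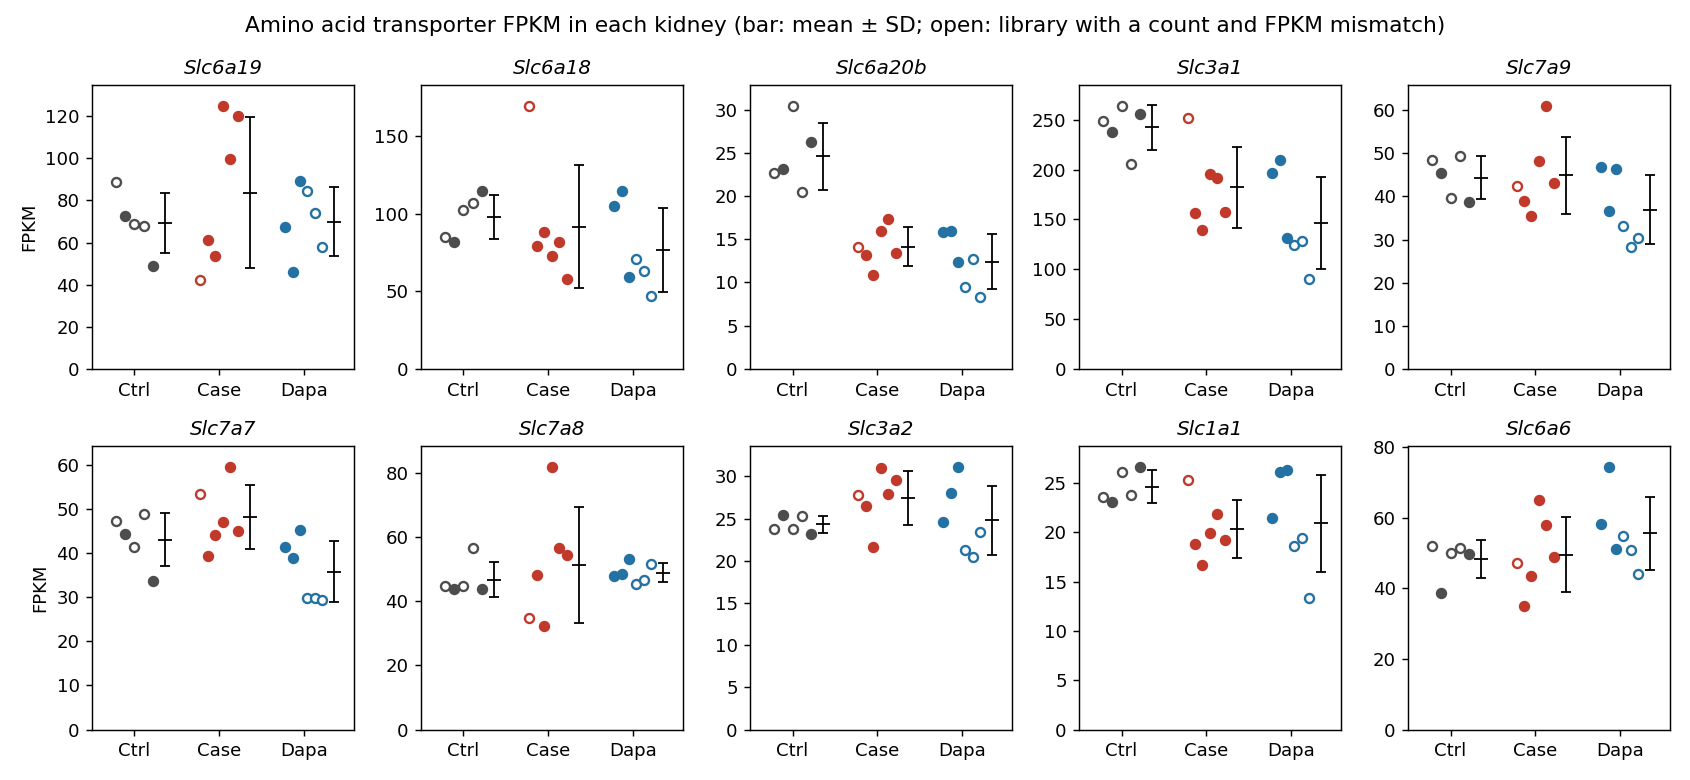
FPKM of each of the 10 transporters (vertical axes from 0) in each Ctrl, Case and Dapa kidney, with the group mean ± SD beside the points and open circles for the 7 libraries of the possible batch. All 12 db/db values of Slc6a20b lie below the lowest Ctrl value of 20.4 FPKM, whereas the groups of the other 9 genes overlap.

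Between Case and Ctrl, 2 of the 10 members passed edgeR's quasi-likelihood test at a Benjamini-Hochberg adjusted p (q) under 0.05 over all 14582 genes tested, where 13% of all genes did, and both were lower in Case, where 6.91% of all genes were lower. They were Slc6a20b and Slc3a1. The median log2 fold change of the members was -0.05, beside 0.03 for all genes tested. None of the 10 was a DEG (q under 0.05 and a fold above 2 between mean FPKM), a class that held 3.79% of all genes tested. Slc6a20b was the 1 member without overlap between the groups, which 8.43% of all genes showed. Case 1 weighed on these counts, since without it 4 members were called, all lower (Slc6a18 and Slc1a1 besides), and 12.0% of all genes were called.

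Between Dapa and Case, none of the 10 members and 0% of the 14573 genes tested passed a q of 0.05 in edgeR's quasi-likelihood test, and 0% were DEGs. The smallest q of any gene was 0.173. At an unadjusted p under 0.05 the count was 1880 genes (12.9%), 1 of them a member (Slc7a7). DESeq2 called 202 genes, edgeR's exact test 129 and a fit of all 3 groups together 5, with 0 members each. The estimates of 8 members were below 0, and their median was -0.25 beside -0.01 for all genes. No member was without overlap, as were 0.48% of all genes.

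Between Dapa and Ctrl, Slc6a20b and Slc3a1 again were the 2 members called, both lower, while 29.1% of the 14647 genes tested were called and 14.9% were lower. At an unadjusted p under 0.05, 6 members were lower and 0 higher, where 41.1% of all genes passed in either direction. The members' median log2 fold change was -0.36, beside 0.02 for all genes. No member was a DEG (7.18% of all genes were), and Slc6a20b did not overlap (14.5% of all genes did not). With a term for the 7 libraries, Slc6a18 (q = 0.0493), Slc7a9 (q = 0.0399), Slc7a7 (q = 0.0458) and Slc1a1 (q = 0.0382) were called lower as well, which made 6 members where 29.98% of all genes were called. Without Dapa 9 the count was 5 (28.0% of all genes) and without Dapa 7 it was 4 (32.3% of all genes). This comparison shares its mice with the other comparisons, so its values are no separate evidence.

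**Figure D2:**
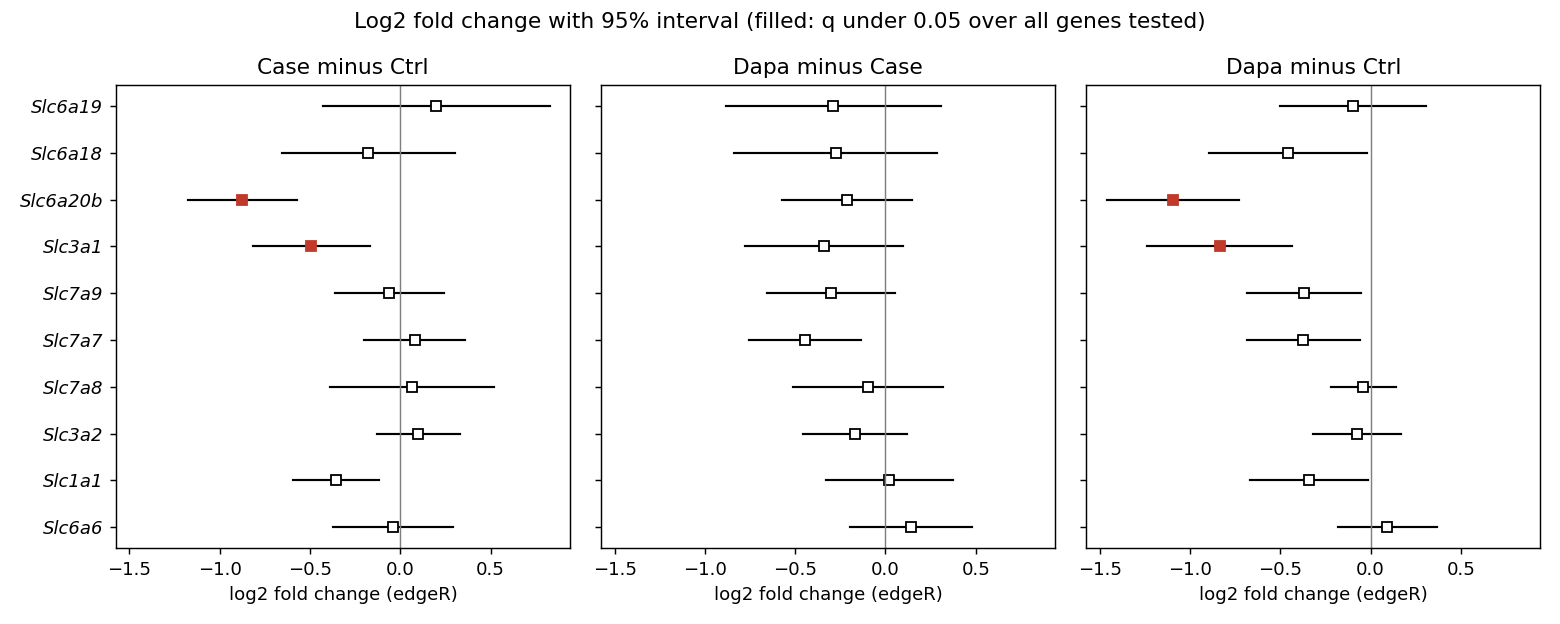
edgeR log2 fold change of each transporter (horizontal axis, squares) with its 95% interval (lines), in Case minus Ctrl, Dapa minus Case and Dapa minus Ctrl. Filled squares mark a q under 0.05, which are Slc6a20b and Slc3a1 in both comparisons with Ctrl, and no square is filled in Dapa minus Case.

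Among the apical carriers of neutral amino acids, Slc6a20b had the largest differences from Ctrl. It belongs to the Slc6a20 pair of carrier genes, a family known for the uptake of proline and other imino acids (ENSMUSG00000025243, chromosome 9, 123593820 to 123632565 on the minus strand of mm10, protein coding). The Ctrl mice had 22.6, 23.1, 30.4, 20.4 and 26.3 FPKM in replicates 1 to 5. Case mice ranged from 10.9 to 17.4 FPKM (median 13.8) and Dapa mice from 8.28 to 15.9 (median 12.5). Both db/db groups lay wholly below Ctrl and overlapped each other. The log2 fold change was -0.88 (SE 0.14, 95% interval -1.18 to -0.57, q = 0.00232) in Case against Ctrl and -1.10 (SE 0.17, q = 0.000875) in Dapa against Ctrl. Dapa differed from Case by -0.21 (95% interval -0.58 to 0.15, q = 0.605), so a change under the drug was not shown. Leaving out each mouse in turn kept Case against Ctrl between -0.96 and -0.78, with a highest q of 0.00817.

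Both db/db groups lay below Ctrl for Slc6a20b inside and outside the possible batch. In the 7 libraries, Ctrl had 20.4 to 30.4 FPKM (n = 3), the single Case mouse 14.1 and Dapa 8.28 to 12.7 (n = 3). In the other libraries Ctrl had 23.1 to 26.3 (n = 2), Case 10.9 to 17.4 (n = 5) and Dapa 12.3 to 15.9 (n = 3). Of the exon bases annotated to Slc6a20b in GENCODE M21, 21.1% also lie in exons of Sacm1l on the other strand, and whether the counting used strand is not given in the sources used here. Sacm1l had mean levels of 38.2 FPKM in Ctrl, 39.7 in Case and 33.7 in Dapa, above Slc6a20b in every group, and its part in the Slc6a20b counts was not tested. It showed a log2 fold change of -0.03 in Case against Ctrl (q = 0.866) and -0.29 in Dapa against Ctrl (q = 0.0117). Slc6a20a, the paired gene, lies on the same strand across a gap of 3556 bases, and 7.76% of the 50-base stretches of Slc6a20b transcripts also occur in transcripts of other genes, most often Slc6a20a. Slc6a20a itself had 9.24 ± 0.34 FPKM in Ctrl (SD, n = 5) and 7.58 ± 1.42 in Case (SD, n = 6), with 6 of 6 Case mice below every Ctrl mouse. In Dapa it had 8.34 ± 3.26 FPKM (SD, n = 6), with 5 mice below and 1 above every Ctrl mouse. Its log2 fold change was -0.36 in Case against Ctrl (q = 0.114) and -0.25 in Dapa against Ctrl (q = 0.396).

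The promoter windows of both called genes are shown, since these are the members whose RNA differed between db/db and Ctrl kidneys. RefSeq gives 13 windows of 300 bases (250 before and 50 after a transcript start, GRCm38.p6) for 8 of the 10 members, and none was matched for Slc6a18 and Slc6a6. Capitals mark the letters of 4 motifs searched on both strands: GTTAAT (part of Hnf1 sites), AAAGTCC (core of Hnf4 sites), TGGAAA (core of the tonicity element of Nfat5) and TGATGCA (core of Atf4 sites). None of these motifs overlapped another in the windows printed.
Slc6a20b promoter, chr9:123632489-123632788, minus strand: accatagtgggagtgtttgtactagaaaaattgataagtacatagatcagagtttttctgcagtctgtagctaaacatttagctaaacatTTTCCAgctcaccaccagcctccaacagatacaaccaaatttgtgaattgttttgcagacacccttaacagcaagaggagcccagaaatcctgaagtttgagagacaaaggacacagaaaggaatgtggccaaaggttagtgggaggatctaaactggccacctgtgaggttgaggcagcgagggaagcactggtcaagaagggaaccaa
Slc3a1 promoter, chr17:85028097-85028396, plus strand: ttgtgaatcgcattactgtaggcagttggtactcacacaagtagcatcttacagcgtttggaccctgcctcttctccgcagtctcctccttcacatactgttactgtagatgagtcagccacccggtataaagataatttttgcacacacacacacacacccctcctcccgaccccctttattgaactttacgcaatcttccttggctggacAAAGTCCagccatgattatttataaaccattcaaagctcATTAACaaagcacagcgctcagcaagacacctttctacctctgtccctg
In the Slc6a20b window TGGAAA was found once, on the opposite strand, with its first base 160 bases before the start. The Slc3a1 window held AAAGTCC 38 bases before the start and GTTAAT on the opposite strand from base 2 after it. Of all 32851 windows given, 7.10% held GTTAAT, 4.21% AAAGTCC, 21.4% TGGAAA and 3.15% TGATGCA. Among the 13 windows of the members, GTTAAT was in 2 (Slc3a1 and Slc7a7), AAAGTCC in 1 (Slc3a1), TGGAAA in 2 (Slc6a20b and Slc7a7) and TGATGCA in 2, which are overlapping windows of Slc7a7 that hold the same genomic letters. The windows of Slc6a19, Slc7a9, Slc7a8, Slc3a2 and Slc1a1 held none of these letters.

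Slc6a19, the main apical carrier of neutral amino acids and the gene of Hartnup disorder, did not pass the test in any comparison (ENSMUSG00000021565, chromosome 13, 73679745 to 73704865 on the minus strand). Ctrl mice had 88.6, 72.5, 68.9, 67.8 and 48.8 FPKM. Case mice spread from 42.0 to 125 FPKM (median 80.4) and Dapa mice from 46.1 to 89.3 (median 70.8). In Case, replicates 4, 5 and 6 lay above every Ctrl mouse and replicate 1 lay below every Ctrl mouse. Its log2 fold change was 0.20 in Case against Ctrl (95% interval -0.43 to 0.83, q = 0.694) and -0.29 in Dapa against Case (95% interval -0.88 to 0.31, q = 0.687).

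Slc6a18 encodes a related apical carrier of neutral amino acids and is the direct neighbour of Slc6a19, with a gap of 1721 bases on the same strand (ENSMUSG00000021612, chromosome 13, 73661750 to 73678023). In Ctrl it measured 84.9, 81.7, 102, 107 and 115 FPKM. Case ranged from 58.2 to 170 FPKM (median 80.6) and Dapa from 47.3 to 115 (median 67.0). Case 1, with the highest Slc6a18 value, had the lowest Slc6a19 value of its group. The log2 fold change of Slc6a18 was -0.18 in Case against Ctrl (95% interval -0.66 to 0.30, q = 0.642), and without Case 1 it was -0.46 with q = 0.0245, a call that 1 library thus decides. In Dapa against Ctrl it was -0.46 (95% interval -0.90 to -0.02, q = 0.105). That estimate reached a q of 0.0467 without Dapa 7 and 0.0292 without Dapa 8. Although the genes adjoin, their FPKM ratio ranged from 0.425 to 1.04 in Ctrl, 0.248 to 2.06 in Case and 0.401 to 1.51 in Dapa, so the proportion between these neighbours varied most among the Case mice.

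Slc3a1, the heavy chain of the apical cystine and dibasic amino acid exchanger and a gene of cystinuria, was the most abundant member and the other called one (ENSMUSG00000024131, chromosome 17, 85028347 to 85064243 on the plus strand). Ctrl mice had 248.6, 238, 264, 205 and 256 FPKM. Case mice ranged from 140 to 252 FPKM (median 175) and Dapa mice from 89.7 to 209 (median 130). In Case, 5 of 6 mice lay below every Ctrl mouse, and Case 1 (252 FPKM) lay within the Ctrl range. In Dapa, 5 of 6 mice lay below every Ctrl mouse, and 4 of 6 lay below every Case mouse.

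The log2 fold change of Slc3a1 was -0.49 (SE 0.15, 95% interval -0.82 to -0.17, q = 0.0486) in Case against Ctrl and -0.84 (SE 0.19, 95% interval -1.24 to -0.43, q = 0.00594) in Dapa against Ctrl. Dapa against Case gave -0.34 (95% interval -0.78 to 0.10, q = 0.484). The call in Case against Ctrl lay at the threshold. It was lost on leaving out any of Ctrl 1, 2, 3 and 5 or Case 2, 3, 4, 5 and 6, with a highest q of 0.116, and with a term for the 7 libraries (log2 fold change -0.41, q = 0.126). In Dapa against Ctrl the call held without each mouse in turn (q from 0.00274 to 0.0181) and with the term for the 7 libraries (q = 0.0018). Inside the 7 libraries Slc3a1 had 205 to 264 FPKM in Ctrl (n = 3), 252 in Case (n = 1) and 89.7 to 128 in Dapa (n = 3). In the others it had 238 to 256 in Ctrl (n = 2), 140 to 195 in Case (n = 5) and 131 to 209 in Dapa (n = 3). Exons of Prepl on the other strand cover 26.5% of the exon bases of Slc3a1. Prepl had 9.71 FPKM in Ctrl and a log2 fold change of -0.11 in Case against Ctrl (q = 0.466) and -0.22 in Dapa against Ctrl (q = 0.247), and its part in the Slc3a1 counts was not tested.

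Slc7a9 encodes the light chain that pairs with Slc3a1 and is the other cystinuria gene (ENSMUSG00000030492, chromosome 7, 35448796 to 35466036 on the plus strand). Its Ctrl values were 48.5, 45.4, 39.7, 49.4 and 38.8 FPKM. Case ranged from 35.6 to 61.0 FPKM (median 42.8) and Dapa from 28.3 to 46.9 (median 34.8). Case spanned the Ctrl range on both sides, while 4 of 6 Dapa mice lay below every Ctrl mouse. The log2 fold change was -0.06 in Case against Ctrl (95% interval -0.36 to 0.24, q = 0.816), -0.30 in Dapa against Case (q = 0.446) and -0.37 in Dapa against Ctrl (95% interval -0.68 to -0.05, q = 0.0743).

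On the basolateral side, Slc7a7 encodes the light chain that exports dibasic amino acids and is the gene of lysinuric protein intolerance (ENSMUSG00000000958, chromosome 14, 54369442 to 54417780 on the minus strand). Ctrl mice had 47.2, 44.2, 41.3, 48.8 and 33.6 FPKM. Case mice ranged from 39.2 to 59.5 FPKM (median 46.1) and Dapa mice from 29.4 to 45.1 (median 34.4). Of the Dapa mice, 4 of 6 lay below every Case mouse and 3 of 6 below every Ctrl mouse. Exons of Oxa1l on the other strand cover 7.00% of the exon bases of Slc7a7. Slc7a7 had the largest difference between Dapa and Case among the members, a log2 fold change of -0.45 (SE 0.14, 95% interval -0.76 to -0.13), which did not pass the correction (q = 0.253). Under every other setting and without each mouse in turn its q in that comparison stayed above 0.05.

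The low Slc7a7 values of Dapa fell together with the possible batch. Dapa 10, 11 and 12, which are in the 7 libraries, had 29.9, 29.8 and 29.4 FPKM, and Dapa 7, 8 and 9 had 41.3, 39.0 and 45.1. Outside the 7 libraries, Dapa (39.0 to 45.1 FPKM, n = 3) and Case (39.2 to 59.5, n = 5) overlapped. Dapa 10, 11 and 12 also were the lowest of their group for Slc3a1, Slc7a9, Slc1a1 and Slc3a2 and for the proximal tubule marker level (153, 163 and 125, against 204, 199 and 185 in Dapa 7, 8 and 9). With a term for the 7 libraries, Slc7a7 differed by -0.39 between Dapa and Case (q = 0.367). With 1 Case library among the 7, their part in the Slc7a7 value cannot be told apart from variation between mice.

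Slc7a8, the light chain of a basolateral exchanger of neutral amino acids, lies 304 kb from Slc7a7 (ENSMUSG00000022180, chromosome 14, 54722216 to 54781886 on the minus strand). Ctrl mice had 44.9, 43.8, 44.7, 56.7 and 43.9 FPKM. The Case mice spread from 32.4 to 82.0 FPKM (median 51.3), and the Dapa mice kept within 45.4 and 53.1 (median 48.3). All Dapa mice lay within the Case range, and Ctrl 4 lay apart from the other Ctrl mice. On the log2 scale Slc7a8 differed by 0.06 in Case against Ctrl (95% interval -0.39 to 0.52, q = 0.875) and -0.10 in Dapa against Case (95% interval -0.51 to 0.32, q = 0.859).

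Slc3a2 encodes the heavy chain shared by the basolateral light chains (ENSMUSG00000010095, chromosome 19, 8706882 to 8723369 on the minus strand). Ctrl mice had 23.8, 25.5, 23.7, 25.4 and 23.2 FPKM, the narrowest spread of any member in that group. Of its 50-base transcript stretches, 3.42% also occur in other genes. Case ranged from 21.7 to 31.0 FPKM (median 27.9) and Dapa from 20.4 to 31.1 (median 24.0). Although 5 of 6 Case mice lay above every Ctrl mouse in FPKM, the log2 fold change of the TMM-scaled counts was 0.10 (95% interval -0.13 to 0.33, q = 0.58). FPKM carried no TMM factor, and the median of all genes stood 0.11 above 0 on the log2 FPKM scale in Case against Ctrl, beside 0.03 in edgeR. For this reason Slc7a9, Slc6a6 and, in Dapa against Ctrl, Slc6a19, Slc7a8 and Slc3a2 had FPKM means slightly above Ctrl with edgeR estimates below 0, none of them called.

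Slc1a1, the apical carrier of glutamate and aspartate, lay just outside the threshold in Case against Ctrl (ENSMUSG00000024935, chromosome 19, 28835049 to 28913960 on the plus strand). Ctrl mice had 23.6, 23.1, 26.1, 23.8 and 26.7 FPKM, Case mice 16.7 to 25.3 (median 19.6) and Dapa mice 13.3 to 26.4 (median 20.5). In Case, 5 of 6 mice lay below every Ctrl mouse, and the exception again was Case 1. The log2 fold change was -0.36 (SE 0.11, 95% interval -0.60 to -0.12, q = 0.0521). It passed with DESeq2 (q = 0.0187), with edgeR's exact test (q = 0.0474) and without Case 1 (log2 fold change -0.44, q = 0.0183) or Case 5 (q = 0.0468). It did not pass under the remaining settings or without any other mouse, with q up to 0.147 with the term for the 7 libraries and 0.125 without Ctrl 3, and scaling to the markers gave 0.19 (q = 0.268). Dapa differed from Case by 0.02 (95% interval -0.33 to 0.37, q = 0.969).

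Slc6a6, the taurine carrier of the tubule and a gene that responds to tonicity, did not pass the test in any comparison (ENSMUSG00000030096, chromosome 6, 91684053 to 91759066 on the plus strand). Ctrl mice had 52.0, 38.8, 50.04, 51.4 and 49.6 FPKM. Case ranged from 34.9 to 65.1 FPKM (median 47.9) and Dapa from 44.1 to 74.4 (median 53.1). Dapa 8 was the highest of all mice, and the groups overlapped. Differences on the log2 scale were -0.04 in Case against Ctrl (q = 0.892), 0.14 in Dapa against Case (95% interval -0.20 to 0.48, q = 0.733) and 0.09 in Dapa against Ctrl (q = 0.613).

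The members' levels stood beside those of other proximal tubule genes. Of 18 proximal tubule markers, 6 were called lower and 0 higher in Case against Ctrl, 0 were called in Dapa against Case, and 10 were called lower in Dapa against Ctrl, where 6.91%, 0% and 14.9% of all genes were called lower. Their median log2 fold change in Case against Ctrl was -0.33, and 0 of 18 estimates were above 0. The largest falls were those of Mep1a, a brush border protease (-1.57, SE 0.16, q = 0.000221), Ggt1, the brush border enzyme of glutathione breakdown (-1.06, SE 0.15, q = 0.00119), and Lrp2, the endocytic receptor megalin (-0.98, SE 0.17, q = 0.00406). The marker level, the mean log2(FPKM + 0.1) of the 18 genes, was 0.45 lower in Case and 0.43 lower in Dapa than in Ctrl. Neither db/db group overlapped Ctrl, though the highest Case mouse (212.1) came next to the lowest Ctrl mouse (212.3), and Dapa and Case differed by 0.03.

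Each member was then set against that marker level within the same mouse, which removes library size. There were 30 such differences, each with an unadjusted p from an exact permutation test (two-sided), and the smallest p that 6 against 5 mice allow is 0.00433. In 16 of them p was under 0.05. In Case against Ctrl, 6 members were higher relative to the markers and 1 was lower. The same question was asked across all genes with edgeR's library factors set to level the 18 markers, a fit added after the data were seen. This scaling moved the median of all genes from 0.03 to 0.59, and 57% of all genes were called higher and 1.45% lower in Case than in Ctrl. Against that share the 6 members called higher (Slc6a19, Slc7a9, Slc7a7, Slc7a8, Slc3a2 and Slc6a6, with log2 fold changes of 0.45 to 0.66) were near the background. Slc3a2 (0.62, exact p = 0.00433) and Slc6a6 (0.47, exact p = 0.00433) were higher in 6 of 6 Case mice than in any Ctrl mouse relative to the markers. Their sizes were near the 0.59 of the median gene in the marker-scaled fit. The share of all genes without overlap on this scale was not computed.

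The members called lower in db/db kidneys, Slc6a20b and Slc3a1, were looked at on the same scale. Relative to the marker mean Slc6a20b differed by -0.35 in Case from Ctrl, with 6 of 6 Case mice below every Ctrl mouse (exact p = 0.00433), and it was the 1 member called lower in Case by the marker-scaled edgeR fit (-0.35, SE 0.13, q = 0.0305). With the median marker in place of the mean the difference was -0.06 (exact p = 0.636), so this relative difference depends on how the markers are summarised. In Dapa against Ctrl the relative difference was -0.59 (exact p = 0.00433), and with the median marker it was -0.35 (exact p = 0.00433). For Slc3a1 the relative difference in Case against Ctrl was 0.02 (exact p = 0.996), with an SD of 0.33 in Case and 0.089 in Ctrl. Of the Case mice, 3 lay below every Ctrl mouse and 1 above. In Dapa against Ctrl Slc3a1 was at -0.35 (exact p = 0.0173). With the median marker that last value was -0.11 (exact p = 0.264). In the marker-scaled fit 58.4% of all genes were called higher and 2.44% lower in Dapa than in Ctrl. Among the members 3 were called higher there (Slc7a8, Slc3a2 and Slc6a6) and 2 lower (Slc6a20b and Slc3a1).

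Relative to the markers, 4 members were lower in Dapa than in Case at an unadjusted p under 0.05 and 0 were higher. The share of all genes that pass this exact test was not computed. Slc7a7 differed by -0.46 (exact p = 0.00649), Slc3a1 -0.37 (exact p = 0.0368), Slc7a9 -0.31 (exact p = 0.00866) and Slc6a20b -0.24 (exact p = 0.0173). Without 1 mouse the exact p of Slc3a1 rose to as much as 0.0736, while those of Slc7a7, Slc7a9 and Slc6a20b stayed under 0.05. The marker-scaled edgeR fit called 0 of the 10 members and 0% of all genes in that comparison. In this fit 705 of 14573 genes had an unadjusted p under 0.05, among them Slc7a7, Slc3a1 and Slc7a9. Its log2 fold changes were of similar size, at -0.47 for Slc7a7 (q = 0.629), -0.39 for Slc3a1 (q = 0.959), -0.30 for Slc7a9 and -0.24 for Slc6a20b (q = 0.999 each), so none passed the correction over all genes.

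**Figure D3:**
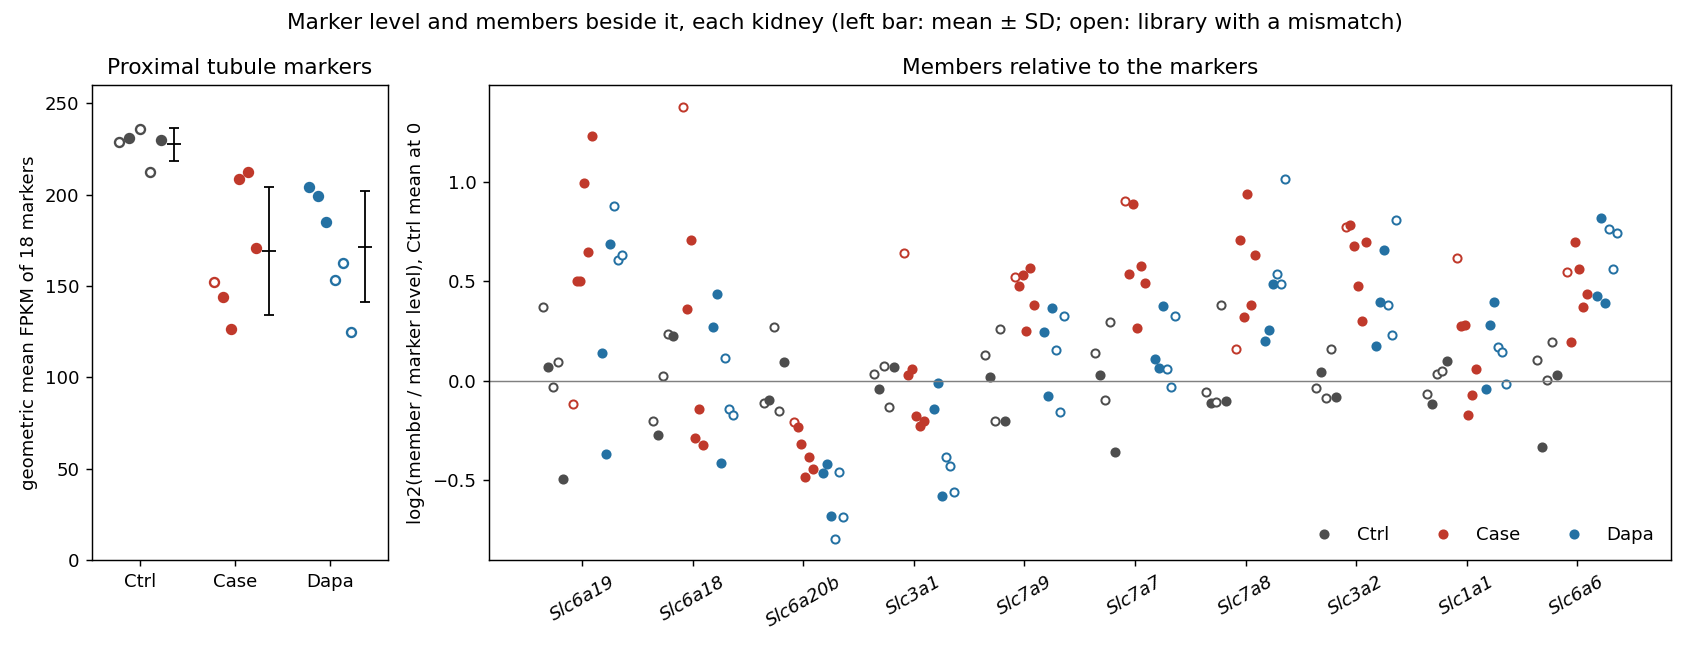
Left, geometric mean FPKM of 18 proximal tubule markers in each kidney with the group mean ± SD. Right, log2 ratio of each transporter to that level, with the Ctrl mean set at 0 and open circles for the 7 libraries. All 12 db/db points of Slc6a20b lie below 0, and all 12 of Slc6a6, Slc3a2 and Slc7a8 lie above 0.

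Partner genes were compared as FPKM ratios within a mouse in 15 differences, and none had an adjusted p under 0.05 (exact two-sided permutation tests, Benjamini-Hochberg). The largest was that of Slc6a19 to Tmem27, the collectrin that Slc6a19 needs at the renal brush border. The ratio was 0.150, 0.111, 0.127, 0.142 and 0.0826 in Ctrl and 0.156 to 0.301 in Case (median 0.209). All 6 Case mice lay above every Ctrl mouse, a log2 difference of 0.79 (exact p = 0.00433, adjusted p = 0.0649). Dapa lay between 0.139 and 0.239 (median 0.193). Tmem27 itself had a log2 fold change of -0.61 in Case against Ctrl (q = 0.117) and was called lower in Dapa against Ctrl (-0.68, q = 0.00557).

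The light to heavy chain ratios moved less. Slc7a9 to Slc3a1 was 0.151 to 0.241 in Ctrl, 0.168 to 0.317 in Case and 0.175 to 0.353 in Dapa, with a log2 difference of 0.44 in Case against Ctrl (exact p = 0.0476, adjusted p = 0.119). Slc7a7 to Slc3a2 was 1.45 to 1.98 in Ctrl, 1.48 to 2.13 in Case and 1.26 to 1.68 in Dapa. Dapa stood -0.28 from Case (exact p = 0.0411, adjusted p = 0.119) and -0.29 from Ctrl (exact p = 0.013, adjusted p = 0.0974) on the log2 scale. Slc7a8 to Slc3a2 stayed within 1.25 and 2.64 in all mice.

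**Figure D4:**
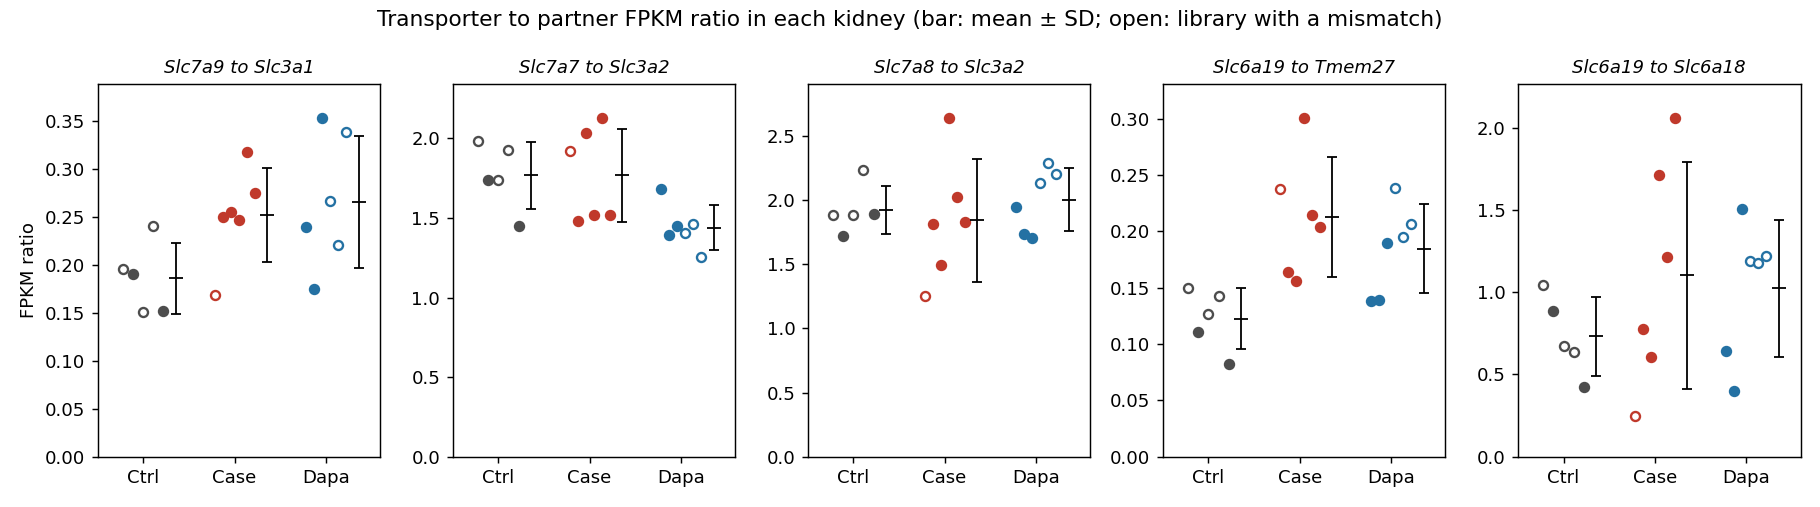
FPKM ratio of each transporter to its partner or neighbour (vertical axes from 0) in each Ctrl, Case and Dapa kidney, with the group mean ± SD and open circles for the 7 libraries. The Slc6a19 to Tmem27 ratio of all 6 Case mice lies above the highest Ctrl ratio of 0.150, and the other ratios overlap between groups.

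Beyond the members, 34 of 41 other amino acid transporter genes were tested in Case against Ctrl, of which 4 were called higher and 3 lower (6.09% and 6.91% of all genes), with a median log2 fold change of 0.04 beside 0.03 for all genes. The largest fall was that of Slc7a13 (-3.24, SE 0.45, q = 0.0011), a light chain of the late proximal tubule (segment S3) that also pairs with Slc3a1, from 254 ± 79.9 FPKM in Ctrl (SD, n = 5) to 28.7 ± 19.0 in Case (SD, n = 6). Slc1a4, a carrier of small neutral amino acids, fell by 1.01 (SE 0.29, q = 0.0358), and Slc6a15, a carrier of branched-chain amino acids and proline, fell by 1.00 (SE 0.16, q = 0.002). Slc7a5, a light chain of Slc3a2 for large neutral amino acids, rose by 1.06 (SE 0.24, q = 0.0154) from a low level of 0.364 FPKM. Slc36a4 rose by 1.07 (SE 0.31, q = 0.0411) and Slc43a2, a carrier of large neutral amino acids, by 0.54 (SE 0.12, q = 0.0122). In Dapa against Case 0 of the 34 were called, and in Dapa against Ctrl 9 were called higher and 9 lower, beside 14.2% and 14.9% of all genes.

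Of 11 accessory and regulatory genes of the transporters, 2 were called in Case against Ctrl, both lower, beside 6.91% of all genes. Pdzk1, a scaffold of the brush border, fell by 0.62 on the log2 scale (SE 0.17, q = 0.0282). In Dapa against Case 0 were called, and in Dapa against Ctrl 4 were called, all lower, beside 14.9% of all genes.

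Among genes of amino acid metabolism, 5 of 35 were called higher and 5 lower in Case against Ctrl, beside 6.09% of all genes higher and 6.91% lower. Bhmt, which remethylates homocysteine from betaine, rose by 2.43 (SE 0.41, q = 0.00303) and Kynu, of the kynurenine path, by 1.48 (SE 0.25, q = 0.00347). Cbs, which commits homocysteine to cysteine, fell by 1.17 (SE 0.15, q = 0.000745), Csad, of taurine synthesis, by 1.05 (SE 0.16, q = 0.00154) and Gamt, of creatine synthesis, by 0.66 (SE 0.16, q = 0.0164). In Dapa against Case 0 of 36 were called, and in Dapa against Ctrl 6 were higher and 12 lower, beside 14.2% and 14.9% of all genes.

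Of 11 tested genes of the amino acid response through Atf4, 1 was called in Case against Ctrl (13% of all genes were), the lipoprotein receptor gene Vldlr (-0.38, SE 0.11, q = 0.04), with 0 in Dapa against Case and 1 each way in Dapa against Ctrl (14.2% of all genes higher and 14.9% lower). Of 9 tonicity response genes, 1 was called higher in Case against Ctrl, the collecting duct water channel Aqp2 (0.78, SE 0.22, q = 0.0395), 0 in Dapa against Case and 2, both higher, in Dapa against Ctrl, beside 6.09%, 0% and 14.2% of all genes called higher.

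By the root mean square difference of z-scored log2(FPKM + 1) over the 17 mice, the profile of Slc6a20b was closest to that of Lrp2 (0.217) and Cyp2j5 (0.282), a cytochrome P450 of the tubule, among 11454 other genes with a mean FPKM of at least 1. For Slc3a1 the closest were Chdh (0.25), the choline dehydrogenase, and AI317395 (0.31). These are descriptions over mice of 3 groups, which share the difference between genotypes.

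Markers of other cell types moved beside the members, and their part in the members' values was not tested. The counts that follow stand beside 6.09% of all genes called higher and 6.91% lower in Case against Ctrl, and 14.2% and 14.9% in Dapa against Ctrl. In Case against Ctrl, 3 of 4 markers of segment S3 were called lower, namely Slc7a13, Cyp7b1 (-3.19, q = 0.00459) and Atp11a (-1.77, q = 0.0152). The remaining marker was not called there, and in Dapa against Ctrl all 4 were called lower. The summed FPKM of the 4 was 198 to 461 in Ctrl, 29.7 to 103 in Case and 29.6 to 143 in Dapa. Most of that sum was Slc7a13, with 125 to 343 FPKM in Ctrl, 8.06 to 51.7 in Case and 9.63 to 96.9 in Dapa. Of 4 markers of segment S1, 0 were called in Case against Ctrl and 2, both lower, in Dapa against Ctrl. Of 13 markers of the loop, distal nephron and collecting duct (Aqp2 among them) 5 were called higher in Case and 8 in Dapa against Ctrl, with sums of 748 to 1860 FPKM in Ctrl, 1323 to 3148 in Case and 1696 to 2552 in Dapa. Of 5 tested tubular injury markers 2 were called higher in Case against Ctrl, Lcn2 (4.60, q = 0.0123) and Spp1 (2.52, q = 0.00248), and the list summed to 77.5 to 134 FPKM in Ctrl, 233 to 1437 in Case and 234 to 626 in Dapa. In Case against Ctrl 2 of 5 podocyte markers were called higher, and 0 of 5 endothelial, 0 of 7 macrophage and 0 of 4 fibroblast markers were called. In Dapa against Ctrl 2 podocyte, 2 fibroblast and 2 tubular injury markers were called, all higher, and 0 endothelial or macrophage markers. The macrophage sum was 61.4 to 95.8 FPKM in Ctrl, 46.7 to 486 in Case and 66.5 to 155 in Dapa. The 4 adipocyte markers summed to 0 to 64.2 FPKM in Ctrl, at most 0.351 in Case and at most 9.41 in Dapa, and none was tested. Lists of T and NK cells, B and plasma cells, neutrophils and the adrenal gland summed to at most 13.4 FPKM in any mouse, and of them Jchain was called lower and Hsd3b1 higher in Case against Ctrl.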

How the data were processed

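Whole-kidney RNA of 17 mice was sequenced with a strand-specific kit, 1 library per mouse. The authors aligned reads to mm10 with HISAT2 and made gene counts with StringTie, and the deposited table holds these raw counts and the FPKM values the authors derived from them. FPKM equalled count over total and length to within 0.0079% for counts of at least 10. The strand setting of the counting is not given in the sources used here. Totals were 13039535 to 17779635 counts per library. Of 22561 genes, 3 whose entries were split over 2 lines (Sirt1, Tgfb1 and Bmp4) were left out. Their values disagreed between counts and FPKM in 7 libraries.

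Groups came from the labels, and p-values measure the spread between mice. Counts were tested pairwise with edgeR 4.0.16 (R 4.3.3; TMM, filterByExpr, quasi-likelihood test, Benjamini-Hochberg over all genes). Fold changes and q in the text come from this test unless another is named. Other settings were DESeq2 1.42.0, edgeR's exact test, limma 3.58.1 on log2(FPKM + 1) and log2(FPKM + 0.1), RLE and upper quartile scaling, no filter, a term for the 7 libraries, no mitochondrial genes, a fit of all 3 groups, a replicate block and each mouse left out. Scaling to the 18 proximal tubule markers was added after the data were seen. Ratios and marker-relative levels used exact permutation tests (scipy 1.17.1). In simulated counts, the edgeR step recovered 70.2% of 198 genes changed 2-fold between Case and Ctrl, with 3 false calls among 14396 genes.

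The members and gene lists were chosen with earlier results of these data known. Genes outside the members were named where they were called between Case and Ctrl, up to 3 in each direction per list by size of change, beside partners, neighbours and overlapping genes of members. Values of 2 genes that this rule names are not reported here. Same-numbered mice did not deviate together (correlations of -0.1 to -0.03), so numbers were not taken as pairs. Promoter windows came from RefSeq.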

Additional observations from a re-analysis of the deposited data

Results flagged for a closer look

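Of 45 groups of values looked at, 3 held a mouse that stood apart from the rest of its group by Dixon's criterion at 95%. Chance flags about 1 in 20 such groups. All 3 were groups of member FPKM. For Slc6a18, Case 1 had 170 FPKM, and its gap to the next mouse took up 0.729 of the range of the 6 Case mice. For Slc7a8, Ctrl 4 had 56.7 FPKM, a gap of 0.909 of the range of the 5 Ctrl mice. For Slc6a6, Ctrl 2 had 38.8 FPKM, below the other Ctrl mice by 0.820 of the range. Case 1 is the only Case mouse among the 7 libraries of the possible batch, and Ctrl 4 is among them while Ctrl 2 is not.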

How the results depend on the processing

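Slc6a20b kept its call and direction under every setting run in each comparison with Ctrl, and no member was called between Dapa and Case under those run there. The replicate block was run between Case and Ctrl alone, since Dapa shares no mouse numbers with them. Members called between Case and Ctrl, 2 in the report, were 1 (Slc6a20b) with limma at either pseudocount, upper quartile scaling, no filter, a term for the 7 libraries, without mitochondrial genes, with all 3 groups in one fit and with the replicate block, 3 with DESeq2 and edgeR's exact test, and 7 with scaling to proximal tubule markers. Leaving out 1 mouse gave 1 to 4, with 4 without Case 1. Members called between Dapa and Ctrl, also 2 (29.1% of all genes), were 6 with the term for the 7 libraries (29.98%) and 5 with marker scaling (60.8%). Without 1 mouse they were 2 to 5, where 21.8% to 32.3% of all genes were called. Marker scaling, added after seeing the data, moved the median of all genes from 0.03 to 0.59 between Case and Ctrl and from 0.02 to 0.56 between Dapa and Ctrl. With that shift 13 member estimates changed sign. Between Case and Ctrl the log2 fold change became 0.051 for Slc3a1, 0.45 for Slc7a9, 0.47 for Slc6a6, 0.41 for Slc6a18 and 0.19 for Slc1a1. Between Dapa and Ctrl it became 0.51 for Slc7a8, 0.46 for Slc3a2, 0.46 for Slc6a19, 0.028 for Slc6a18, 0.14 for Slc7a9, 0.14 for Slc7a7 and 0.16 for Slc1a1, and between Dapa and Case -0.025 for Slc1a1. Other values changed sign 18 times under other settings (at most 0.0692 in size) and 45 times without 1 mouse (at most 0.30), and in none of these did the value pass its test before or after. The cause of the other changes was not tested. Ratio differences with an adjusted p under 0.05 were 0, and 0 to 2 without 1 mouse (2 without Dapa 7). Marker-relative differences at an unadjusted p under 0.05 numbered 16, with 19 for the median marker and 14 to 17 without 1 mouse.

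The numbers do not pair the mice, and the replicate block gave Slc6a20b a log2 fold change of -0.88 (q = 0.0361) and Slc3a1 -0.50 (q = 0.124), with 699 genes called between Case and Ctrl in place of 1895. The term for the 7 libraries left 1219, and marker scaling called 8531, and 8910 in place of 4260 between Dapa and Ctrl. Members had at least 970 counts per library, and what more depth or more mice would show was not tested.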
